A study of Mus musculus with 8 samples.

Results

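The ribosome biogenesis genes described here are 40 genes whose products work in or pass through the nucleolus, together with Srm, the spermidine synthase gene, which is counted among the 40 but is not a nucleolar factor. They were chosen by name and function, not by their level in these libraries. All 40 were found among the 24419 gene symbols of the count table, with Utp4 listed under its older symbol Cirh1a, and all 40 were among the 15875 genes that passed the filter on low counts. By role, 3 genes encode subunits of RNA polymerase I, 4 belong to box C/D and 4 to box H/ACA small nucleolar ribonucleoproteins (snoRNPs), 6 organise the nucleolus, 8 belong to the small subunit processome, 3 act late on the small subunit and 11 assemble the large subunit.

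RNA polymerase I transcribes the precursor of the ribosomal RNAs in the nucleolus, where snoRNPs modify it and large assemblies of processing factors cut it and fold it into the small and large ribosomal subunits. Growing cells spend much of their resources on this pathway, and its enlargement is seen in many tumors as large, prominent nucleoli. The transcription factor Myc is known to raise the genes of this pathway at each level, from RNA polymerase I and its cofactors to nucleolin, nucleophosmin and the assembly factors, often through the E-box sequence CACGTG near the start of transcription.

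Bulk RNA was sequenced from 4 mouse models of endometrial cancer (EC), with 2 libraries per model from separate mice. All models were started from organoids of uteri of CAG-Cas9-EGFP mice, in which Cas9 is present throughout, with edits that include an sgRNA against Trp53 in every model, and the organoids were transplanted into the left uterus of female nude mice. In TPM, TPMCa and TPMR1 a Myc cDNA was added with the retroviral vector MSCV-Myc-IRES-Luci2. TPMCa (TPMPik3ca in the labels) also received Pik3ca E545K cDNA, which encodes an activated catalytic subunit of PI3K, and TPMR1 (TPMPik3r1) also received an sgRNA against Pik3r1, the gene of its regulatory subunit. TPK carried no Myc cDNA. TPK differs from TPM in more than the Myc cDNA, so Myc and the other changes of TPK cannot be told apart in any comparison with TPK. The sources name the material in 2 ways, as EC tumor organoids in the labels and as tumor tissue taken after transplantation in the methods.

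Total counts lay between 15748396 and 26943611 per library, and a count of 3, taken as the floor, corresponded to 0.116 to 0.198 CPM (library-scaled read counts, by the TMM method). All 40 genes lay far above this floor in every library, from 15.9 CPM for Rrp9 in TPK replicate 2 upward. The 6 epithelial markers (Epcam, Cdh1, Krt7, Krt8, Krt18 and Krt19) summed to 3236 and 4963 CPM in TPK, 5498 and 2941 in the TPM libraries, 73.3 and 23.7 in those of TPMCa, and 6.47 and 27.4 in those of TPMR1. RNA of these markers was thus far lower in the TPMCa and TPMR1 libraries, although no epithelial marker was at 0 counts. The 6 squamous markers, summed, were 19581 and 12279 CPM in TPK, 15749.6 and 3946 in the TPM libraries, 6.02 and 3.01 in those of TPMCa, and 1.32 and 11.7 in those of TPMR1, and Sprr1b was at 0 counts in the TPMCa and TPMR1 libraries. In the GENCODE M21 annotation, exons of 12 of the 40 genes, Polr1a, Dkc1, Mybbp1a and Rrp1b among them, overlap exons of another gene on the opposite strand, and since the sources do not give the strand setting of the counting, reads in these stretches cannot be told apart. The longest stretch was 102 bases in Polr1a, 45 in Dkc1, 131 in Mybbp1a and 54 in Rrp1b, and 616 in Tsr1. In bulk RNA, fewer cells of a type and less RNA per cell cannot be told apart, so each level below is that of the whole sample.

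Myc was measured at 154 and 92.8 CPM in TPK, 772 and 1767 in the TPM libraries, 3075 and 324 in those of TPMCa, and 606 and 466 in those of TPMR1. Every library of the 3 models with the Myc cDNA lay above both TPK libraries. Within these 3 models the libraries of different models overlapped, except that both TPMR1 libraries lay below both TPM libraries, and the TPMCa libraries differed 9.51-fold from each other. The log2 fold change of Myc against TPK was 3.37 ± 1.03 (SE) in TPM, 3.79 ± 1.05 in TPMCa and 2.12 ± 0.98 in TPMR1, with edgeR adjusted p of 0.668, 0.0804 and 0.2, so none of these passed the threshold of 0.05. The counts do not separate RNA of the introduced cDNA from RNA of the endogenous gene.

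The 40 genes together were lowest in TPK. Their summed level was 4462 and 3718 CPM in TPK, 5859 and 6783 in the TPM libraries, 9457 and 6888 in those of TPMCa, and 6816 and 8159 in those of TPMR1, and every library with the Myc cDNA lay above both TPK libraries. As means ± SD (n = 2) these were 4090 ± 526, 6321 ± 653, 8173 ± 1817 and 7487 ± 950.2 CPM. Their share of all counts ran from 0.358% in TPK replicate 2 to 0.912% in TPMCa replicate 1. TPMCa replicate 1, the library with the most Myc, held the highest level of 19 of the 40 genes, TPMR1 replicate 2 of 10 and TPMR1 replicate 1 of 6. The lowest level of 28 genes was in TPK replicate 2, the library with the least Myc, and that of another 8 in TPK replicate 1. The exceptions were Heatr1, lowest in TPMCa replicate 2, Bop1, lowest in TPMCa replicate 1, and Nob1 and Nip7, both lowest in TPMR1 replicate 2. How many of all genes tested were highest or lowest in each library was not counted, so these counts have no background.

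**Figure D1:**
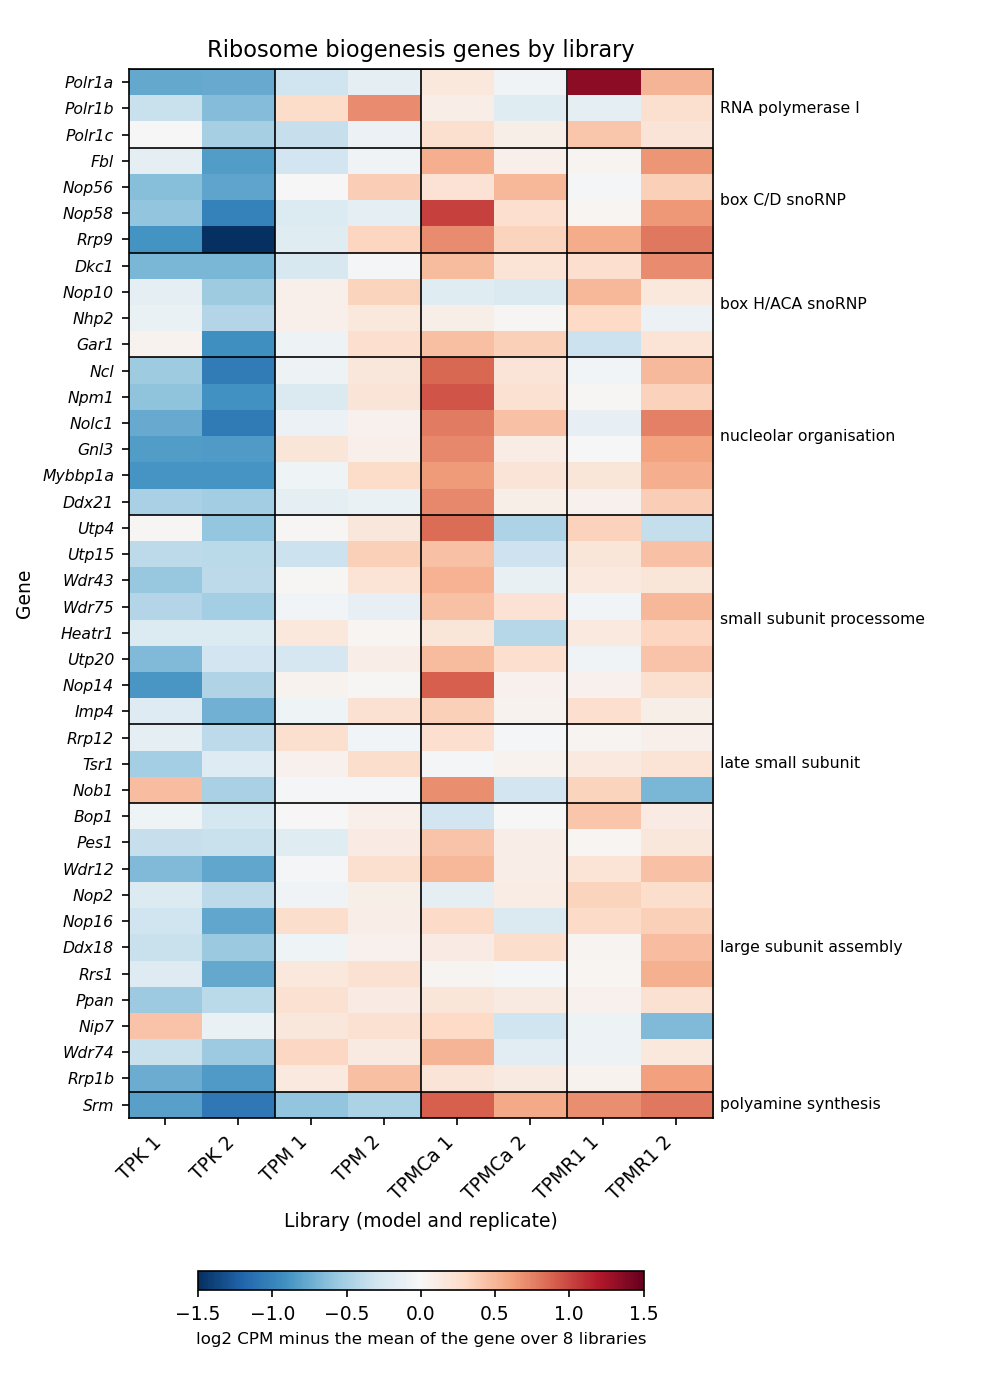
Level of each of the 40 genes (rows, grouped by role) in each of the 8 libraries (columns), as log2 CPM minus the mean of the gene over the libraries, with colours that stop at 1.5 in either direction. The TPK columns are blue for most genes, TPMCa replicate 1 is the reddest column with the highest level of 19 genes, and Nob1 and Nip7 do not follow the rest.

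Against TPK, most of the genes were higher in each model with the Myc cDNA, by about the same modest amount, and few passed the test one by one. In TPM, 39 of 40 were higher, with a median log2 fold change of 0.53 (1.45-fold) beside -0.01 over all genes tested, and both TPM libraries lay above both TPK libraries for 35 of 40, where 23.5% of all genes tested did so. No gene of the 40 reached an edgeR adjusted p under 0.05 in TPM, as no gene of the whole table did (background 0% called higher), 10 had an unadjusted p under 0.05 (background 3.8% higher), and the Wald test of DESeq2 called 1, Rrp1b (background 0.969% called higher). DESeq2 called 16 of the 40 higher in TPMCa (background 8.96%), 13 in TPMR1 (background 10.7%) and 16 in the mean of the 3 models (background 7.94%). In TPMCa, 39 of 40 were higher with a median of 0.69 (1.61-fold) beside -0.01 over all genes, 34 did not overlap (background 29.7%), and 2 rose at an edgeR adjusted p under 0.05, Srm and Rrp9 (background 1.43% called higher). In TPMR1, 38 of 40 were higher with a median of 0.71 (1.64-fold) beside 0.02 over all genes, 36 did not overlap (background 26.5%), and 6 rose, Srm, Polr1a, Rrp9, Dkc1, Rrp1b and Mybbp1a (background 3.31% called higher). None of the 40 fell in any of these comparisons, where 0%, 4.6% and 7.03% of all genes tested were called lower.

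The 3 comparisons share the TPK libraries, so their values stand side by side and are not independent of each other. Against the mean of the 3 models with the Myc cDNA, TPK was lower for 38 of 40 genes, the median being 0.63 (1.55-fold higher in those models) beside -0.01 over all genes. For 31 of 40 genes all 6 of these libraries lay above both TPK libraries, as they did for 10% of all genes tested, and 4 genes rose at an edgeR adjusted p under 0.05, Srm, Rrp9, Rrp1b and Mybbp1a (background 1.18% called higher), while none fell (background 6.1%). These 4 calls depended on single libraries, and with 1 library left out the median ran from 0.57 to 0.73. With the cutoffs of the study's methods (p below 0.05 before adjustment, change of more than 1 on the log2 scale), 2 genes were higher in TPM (background 2.95%), 12 in TPMCa (background 9.54%) and 11 in TPMR1 (background 10.7%), and 10 in the mean of the 3 models (background 6.24%). The number of calls depended on single libraries. The share of all genes called also moved when a library was left out, so this is not particular to the 40 genes. In TPMCa the median was 0.56 without TPMCa replicate 1 and 0.92 without TPMCa replicate 2. In TPMR1 it was 0.60 without TPMR1 replicate 2 and 0.87 without TPMR1 replicate 1.

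**Figure D2:**
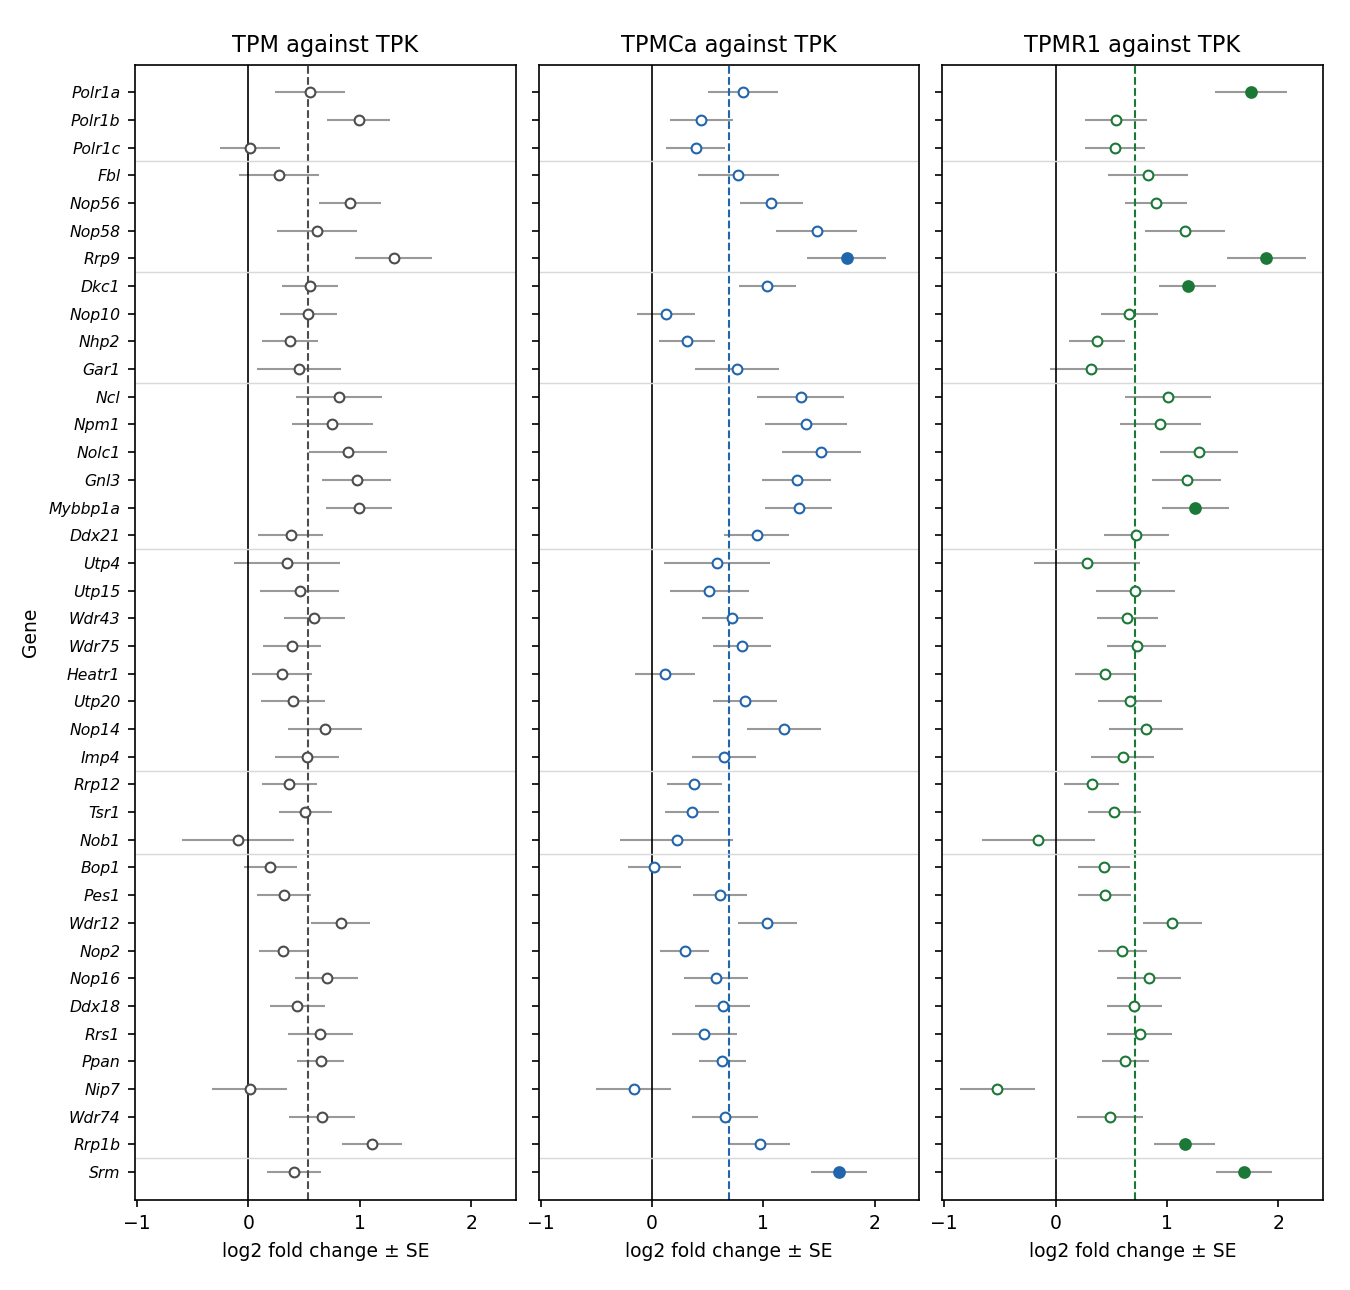
Log2 fold change ± SE of each of the 40 genes in TPM, TPMCa and TPMR1 against TPK, grouped by role (grey lines), with filled points for an edgeR adjusted p under 0.05 and a dashed line at the median. The medians are 0.53, 0.69 and 0.71, and the filled points are 0, 2 and 6 genes.

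RNA of proliferation genes and of cell type markers also differed in these comparisons. The 15 proliferation genes summed to 1342 and 908 CPM in TPK, 1102 and 1316 in the TPM libraries, 2189.8 and 2332 in those of TPMCa, and 2050.3 and 2284 in those of TPMR1, so that TPMCa and TPMR1 lay above both TPK libraries while TPM overlapped with TPK. The epithelial sum given above also overlapped between TPM and TPK, and was far lower in TPMCa and TPMR1. Among the marker lists of other cells, the 7 macrophage markers, summed, were 2908 and 1687 CPM in TPK, 964 and 465 in the TPM libraries, 1082 and 4612 in those of TPMCa, and 314 and 717 in those of TPMR1, and the 5 measured neutrophil markers 654 and 710.1 CPM in TPK, 482 and 871 in the TPM libraries, 2187 and 291 in those of TPMCa, and 14.4 and 527 in those of TPMR1. All 7 macrophage markers lay lower in both TPM libraries than in both TPK libraries, with a median log2 fold change of -1.75. The 6 endothelial markers summed to 153 and 51.7 CPM in TPK, 117 and 96.8 in the TPM libraries, 388 and 543 in those of TPMCa, and 157 and 608 in those of TPMR1. Against TPK all 6 were higher in TPMCa without overlap, with a median of 4.36-fold, and 5 of 6 were higher in TPMR1, with a median of 3.27-fold. The sums of the fibroblast, lymphocyte and smooth muscle markers overlapped with those of TPK in every model, except for the lymphocyte markers in TPMCa, at 11.4 and 103 CPM beside 8 and 2.64 CPM in TPK. The part of cell content in the levels of the 40 genes was not tested.

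Among the 34 genes found in the table of RefSeq promoters (GRCm38.p6, windows of 250 bases before to 50 bases after each start site, 37 windows in all), the E-box CACGTG, which reads the same on both strands, was present in 8 of 37 windows (21.6%), compared with 9.28% of the windows of all genes tested and 7.15% of all windows. It lay before the start site in 2 of the 37 windows (5.41%), compared with 7.8% of those of genes tested. The 8 matches are shown because CACGTG is the sequence that Myc is best known to bind, each with up to 12 bases on either side, 5′ to 3′ on the strand of the gene, with the E-box in capitals.

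Imp4 (chr1:34439696-34439725, + strand): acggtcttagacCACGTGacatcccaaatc
Nop2 (chr6:125131811-125131840, + strand): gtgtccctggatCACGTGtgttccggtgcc
Pes1 (chr11:3963965-3963994, + strand): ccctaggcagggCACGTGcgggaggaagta
Utp4 (chr8:106893643-106893672, + strand): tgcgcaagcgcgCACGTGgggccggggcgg
Wdr43 (chr17:71616220-71616249, + strand): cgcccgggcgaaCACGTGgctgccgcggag
Tsr1 (chr11:74898092-74898121, + strand): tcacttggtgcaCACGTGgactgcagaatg
Utp20 (chr10:88826765-88826789, - strand): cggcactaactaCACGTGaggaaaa
Mybbp1a (chr11:72441355-72441376, + strand): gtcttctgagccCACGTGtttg

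The first base of the E-box lay 121 bases before the start site in Imp4 and 60 before it in Nop2, and 2 bases after it in Pes1, 15 in Utp4, 17 in Wdr43, 24 in Tsr1, 37 in Utp20 and 40 in Mybbp1a. For the 8 genes with a match, the change in the models with the Myc cDNA against TPK had a median of 0.53 on the log2 scale, from 0.40 to 1.19, and for the 26 without a match the median was 0.67, from -0.23 to 1.65. A match of letters is a description of the sequence and not a measured binding site. Npm1, Fbl, Bop1, Rrp12, Rrs1 and Srm were not matched.

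RNA polymerase I makes the ribosomal RNA precursor. Polr1a, the largest subunit (GRCm38 chr6:71909053-71984935), was at 69.8 and 70.5 CPM in TPK, 96.9 and 109 in the TPM libraries, 133 and 115 in those of TPMCa, and 303 and 170.0 in those of TPMR1. TPK was lowest, the TPM and TPMCa libraries lay close together in the middle, and TPMR1 replicate 1 stood far above the rest. Its log2 fold change against TPK was 0.55 in TPM, 0.82 in TPMCa and 1.75 ± 0.32 (edgeR adjusted p = 0.0247) in TPMR1, and against TPM it was 1.20 ± 0.32 (edgeR adjusted p = 0.0814) in TPMR1. The rise of Polr1a in TPMR1 lost its call without either TPK or either TPM library, with edgeR adjusted p up to 0.147. Polr1b, the second-largest subunit, was at 56.5 and 45.6 CPM in TPK, 86.5 and 116 in the TPM libraries, 76.2 and 62.8 in those of TPMCa, and 64.6 and 84.1 in those of TPMR1. It was highest in TPM, where both libraries lay above those of TPK, TPMCa and TPMR1, in contrast to Polr1a. The log2 fold change of Polr1b in TPM against TPK was 0.99 ± 0.28 (edgeR adjusted p = 0.656). Polr1c, a subunit shared with RNA polymerase III, was at 61.7 and 43.6 CPM in TPK, 48.4 and 57.9 in the TPM libraries, 72.8 and 65.3 in those of TPMCa, and 82.2 and 70.4 in those of TPMR1, and its TPK libraries spanned both TPM libraries.

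Box C/D snoRNPs guide 2′-O-methylation of ribosomal RNA. Fibrillarin (Fbl), their methyltransferase, was at 172 and 105 CPM in TPK, 154 and 182 in the TPM libraries, 276 and 199 in those of TPMCa, and 194 and 297 in those of TPMR1. The TPM libraries overlapped with TPK, whereas the TPMCa and TPMR1 libraries were all higher, with log2 fold changes against TPK of 0.78 ± 0.36 and 0.83 ± 0.36 (edgeR adjusted p = 0.18). Nop56, a core scaffold protein, was at 183 and 164 CPM in TPK, 284 and 368 in the TPM libraries, 328 and 399 in those of TPMCa, and 281 and 365 in those of TPMR1, without overlap between TPK and any other model. Its log2 fold changes were 0.91, 1.07 and 0.90 in the order TPM, TPMCa, TPMR1, among the highest of the snoRNP genes in TPM.

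Nop58, the partner scaffold of Nop56, was at 98 and 73.2 CPM in TPK, 128 and 135 in the TPM libraries, 300.3 and 177 in those of TPMCa, and 151 and 232 in those of TPMR1. TPMCa replicate 1 stood well above the rest, and the log2 fold change in TPMCa was 1.48 ± 0.36 (edgeR adjusted p = 0.0627) against TPK and 0.86 ± 0.36 (edgeR adjusted p = 0.224) against TPM. Rrp9, the protein bound to the U3 snoRNA that guides the first cuts of the precursor (GRCm38 chr9:106475963-106485424), was at 26.6 and 15.9 CPM in TPK, 43.5 and 61.4 in the TPM libraries, 80.6 and 62 in those of TPMCa, and 72.6 and 85 in those of TPMR1. It spanned the widest range of the 40 genes, 5.35-fold from its lowest to its highest library, and its TPK libraries lay below all others. Rrp9 was 2.47-fold higher in TPM, with a log2 fold change of 1.30 ± 0.35 (edgeR adjusted p = 0.653), and rose 3.36-fold in TPMCa, 1.75 ± 0.35 (edgeR adjusted p = 0.04) on the log2 scale, and 3.71-fold in TPMR1, 1.89 ± 0.35 (edgeR adjusted p = 0.0261). The call was lost in TPMCa without any 1 of the TPK, TPM or TPMCa libraries, with edgeR adjusted p up to 0.219, and in TPMR1 without either TPK library or TPM replicate 2, up to 0.148.

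Box H/ACA snoRNPs guide the conversion of uridine to pseudouridine, and dyskerin (Dkc1, GRCm38 chrX:75095854-75109777) is their catalytic subunit. Dkc1 was at 60.1 and 60.5 CPM in TPK, 82 and 95.1 in the TPM libraries, 135 and 112 in those of TPMCa, and 116 and 158 in those of TPMR1. The order TPK, TPM, then TPMCa and TPMR1 held for every library, with TPMCa and TPMR1 overlapping. Dkc1 rose in TPMR1 by 1.19 ± 0.26 (edgeR adjusted p = 0.0361) on the log2 scale, and its log2 fold change in TPMCa was 1.03 ± 0.26 (edgeR adjusted p = 0.0637). The call in TPMR1 held without TPMR1 replicate 1 and was lost without any other library, with edgeR adjusted p up to 0.19. Nhp2, a core protein of the same particles, was at 177 and 140.4 CPM in TPK, 199.9 and 212 in the TPM libraries, 202 and 193 in those of TPMCa, and 233 and 178 in those of TPMR1. Its libraries lay close together, with log2 fold changes between 0.31 and 0.38, and only the TPK libraries were set apart, by little. For Nop10, the smallest core protein, both TPMR1 libraries lay above both TPMCa libraries, by 0.54 ± 0.26 (edgeR adjusted p = 0.464) on the log2 scale. Gar1 overlapped with TPK in TPM and TPMR1.

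The genes that organise the nucleolus showed the highest medians of the groups with 3 or more genes in TPM and TPMR1, 0.85 and 1.09 on the log2 scale, and also in TPMCa, 1.32, and for all 6 no library of another model overlapped with TPK. Nucleolin (Ncl), which binds nascent ribosomal RNA, was at 655 and 458 CPM in TPK, 898 and 1062 in the TPM libraries, 1723 and 1083 in those of TPMCa, and 917 and 1322 in those of TPMR1. Nucleophosmin (Npm1), a shell protein of the nucleolus and chaperone of ribosomal proteins, was at 582 and 471 CPM in TPK, 763 and 1014 in the TPM libraries, 1707 and 1039 in those of TPMCa, and 895 and 1126 in those of TPMR1. Both genes had the same pattern, TPK lowest and TPMCa replicate 1 highest by a wide margin, and their log2 fold changes in TPMCa were 1.33 ± 0.39 (edgeR adjusted p = 0.0886) and 1.38 ± 0.37 (edgeR adjusted p = 0.0749). Reads of Npm1 may be shared with its processed pseudogenes, which the counting could split.

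Nolc1, the snoRNP chaperone Nopp140, was at 131 and 107 CPM in TPK, 209 and 232 in the TPM libraries, 380.4 and 302 in those of TPMCa, and 204 and 376 in those of TPMR1. Nucleostemin (Gnl3), a GTPase of dividing and stem cells, was at 67.2 and 66.6 CPM in TPK, 136 and 127 in the TPM libraries, 198 and 130.3 in those of TPMCa, and 120.1 and 182 in those of TPMR1. In both, TPMCa replicate 1 and TPMR1 replicate 2 were the highest libraries and TPK the lowest, and the log2 fold changes in TPMCa were 1.52 ± 0.35 (edgeR adjusted p = 0.0554) and 1.30 ± 0.31 (edgeR adjusted p = 0.0608). Mybbp1a, a nucleolar Myb-binding protein (GRCm38 chr11:72441355-72451768), was at 216 and 216 CPM in TPK, 379.8 and 481 in the TPM libraries, 621 and 453 in those of TPMCa, and 449.8 and 579.7 in those of TPMR1. Its TPK libraries were nearly equal and well below the rest, and Mybbp1a rose in TPMR1 by 1.25 ± 0.30 (edgeR adjusted p = 0.0463) on the log2 scale, with 1.32 ± 0.30 (edgeR adjusted p = 0.0532) in TPMCa. The call in TPMR1 was lost when any 1 of the 8 libraries was left out, with edgeR adjusted p up to 0.209. Ddx21, a helicase that couples polymerase I transcription with processing, had log2 fold changes of 0.38, 0.94 and 0.72.

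The small subunit processome folds and cuts the 5′ part of the precursor. All 8 of its genes were higher in each model with the Myc cDNA, with medians of 0.43 in TPM, 0.68 in TPMCa and 0.65 in TPMR1, and none of the 8 passed the threshold in edgeR. Wdr43, a nucleolar WD-repeat protein, was at 94.2 and 106 CPM in TPK, 141 and 161 in the TPM libraries, 200.1 and 129.5 in those of TPMCa, and 154 and 158 in those of TPMR1. The TPK libraries were below all others, and TPMCa replicate 1 was again the highest. Heatr1, which also aids polymerase I transcription, was at 78.5 and 78.4 CPM in TPK, 101 and 92.3 in the TPM libraries, 103 and 67.1 in those of TPMCa, and 100.3 and 113 in those of TPMR1. TPMCa replicate 2 was below TPK, so TPMCa overlapped with TPK, with a log2 fold change of 0.12 ± 0.27.

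Utp20, a large helical-repeat scaffold, was at 47.5 and 61.9 CPM in TPK, 63.5 and 81 in the TPM libraries, 105 and 90.1 in those of TPMCa, and 72.4 and 101 in those of TPMR1. All other models lay above TPK, though TPM replicate 1 exceeded TPK replicate 2 only slightly. Utp4, a subunit of the UTP-A subcomplex, was at 86.6 and 57.4 CPM in TPK, 86.9 and 96.5 in the TPM libraries, 153 and 62.3 in those of TPMCa, and 108 and 66.6 in those of TPMR1. It overlapped with TPK in TPMCa and TPMR1, and in both models replicate 1 was far above replicate 2. The other genes were Utp15, also of UTP-A, Wdr75, Nop14 and Imp4, with log2 fold changes from 0.39 in TPM for Wdr75 to 1.19 in TPMCa for Nop14.

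The 3 late small subunit genes had the lowest medians of the role groups against TPK in TPMCa and TPMR1, 0.36 and 0.32. Rrp12, an export factor of pre-ribosomes, was at 47.9 and 40.4 CPM in TPK, 62.4 and 51.5 in the TPM libraries, 63 and 51.9 in those of TPMCa, and 54.6 and 56 in those of TPMR1. Its range was the narrowest of the 40 genes, 1.56-fold, and its TPK libraries were still the lowest. Nob1, the endonuclease that makes the mature 3′ end of 18S ribosomal RNA, was at 93.9 and 48.5 CPM in TPK, 66.6 and 67 in the TPM libraries, 110.5 and 55.7 in those of TPMCa, and 85.6 and 42.2 in those of TPMR1. Its 2 libraries differed widely within TPK, TPMCa and TPMR1, every model overlapped with TPK, and the log2 fold changes were -0.09 ± 0.50, 0.22 ± 0.50 and -0.15 ± 0.50. With libraries scaled by total counts alone, which moves the median of all genes against TPK by 0.12 on the log2 scale, the value of Nob1 in TPM turned positive. Tsr1, a GTPase-like maturation factor, did not overlap with TPK in any model, at 0.51, 0.36 and 0.53.

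Among the 11 genes of large subunit assembly, Bop1, Pes1 and Wdr12 form the PeBoW complex, and their patterns differed. Bop1 was at 90.5 and 79.2 CPM in TPK, 94.3 and 100.05 in the TPM libraries, 77.8 and 94.4 in those of TPMCa, and 126 and 103 in those of TPMR1. Bop1 was lowest in TPMCa replicate 1, the library that was highest for 19 of the 40 genes. Its log2 fold changes against TPK were 0.20 ± 0.24 in TPM and 0.44 ± 0.24 (edgeR adjusted p = 0.265) in TPMR1, the libraries of both models lying above those of TPK, and 0.02 ± 0.24 in TPMCa, which overlapped with TPK. Pes1 was at 124 and 125 CPM in TPK, 139 and 172 in the TPM libraries, 211 and 169 in those of TPMCa, and 161 and 177 in those of TPMR1, with all other libraries above TPK. Wdr12 was at 28.3 and 26 CPM in TPK, 43.8 and 52.9 in the TPM libraries, 63.1 and 48.2 in those of TPMCa, and 51.7 and 60.7 in those of TPMR1. Wdr12 showed the clearest separation of the complex, with log2 fold changes of 0.83 ± 0.27 (edgeR adjusted p = 0.668) in TPM, 1.03 ± 0.27 (edgeR adjusted p = 0.0688) in TPMCa and 1.05 ± 0.27 (edgeR adjusted p = 0.0539) in TPMR1. A test of the difference between the subunits was not run.

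Nop2, a ribosomal RNA methyltransferase used as a marker of proliferating nucleoli, was at 109 and 95.9 CPM in TPK, 121 and 134 in the TPM libraries, 115 and 137 in those of TPMCa, and 158 and 152 in those of TPMR1. TPK was lowest with little distance, and TPMCa replicate 1 was the next library above it. Rrp1b, a nucleolar partner of protein phosphatase 1 (GRCm38 chr17:32036100-32062865), was at 48.1 and 44.8 CPM in TPK, 89.5 and 111 in the TPM libraries, 92.7 and 89 in those of TPMCa, and 83.9 and 123 in those of TPMR1. Every library with the Myc cDNA was well above TPK, the smallest unadjusted p of the 40 genes in TPM against TPK was that of Rrp1b, 1.11 ± 0.27 (edgeR adjusted p = 0.653), and it rose in TPMR1 by 1.16 ± 0.27 (edgeR adjusted p = 0.0442). That call held without TPMR1 replicate 1 and was lost without any other library, with edgeR adjusted p up to 0.226. Wdr74, a WD-repeat assembly factor, was at 42.9 and 36.9 CPM in TPK, 67.1 and 59.3 in the TPM libraries, 77.3 and 48.5 in those of TPMCa, and 51.3 and 60.3 in those of TPMR1, with the TPK libraries lowest.

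Nip7, an adaptor of pre-ribosome assembly, was not separated from TPK in any model. It was at 87.7 and 61 CPM in TPK, 73.2 and 76.6 in the TPM libraries, 79.9 and 53 in those of TPMCa, and 62 and 41.4 in those of TPMR1. TPK replicate 1 was the highest and TPMR1 replicate 2 the lowest library, and TPK overlapped with each model, with log2 fold changes of 0.01 ± 0.34, -0.16 ± 0.34 and -0.52 ± 0.34 (edgeR adjusted p = 0.339). The other large subunit genes Nop16, Ddx18, Rrs1 and Ppan were all above TPK in each model without overlap, with log2 fold changes between 0.44 and 0.84.

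Srm makes spermidine from putrescine, one of the polyamines that growing cells need. Srm (GRCm38 chr4:148591503-148594993) was at 111 and 92.5 CPM in TPK, 129.7 and 140.4 in the TPM libraries, 364 and 288 in those of TPMCa, and 317 and 338 in those of TPMR1. The libraries fell into a low pair of models, TPK and TPM, and a high pair, TPMCa and TPMR1, with TPM above TPK by less than the distance to the high models. Srm rose 3.21-fold in TPMCa, 1.68 ± 0.25 (edgeR adjusted p = 0.0188) on the log2 scale, and 3.22-fold in TPMR1, 1.69 ± 0.25 (edgeR adjusted p = 0.0151), against TPK, and its value in TPM was 0.41 ± 0.24 (edgeR adjusted p = 0.752). In TPMCa the call was lost without either TPK library, TPM replicate 2 or either TPMCa library, with edgeR adjusted p up to 0.136, and in TPMR1 without either TPK library, up to 0.106.

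Among the models that share the Myc cDNA, Srm was the 1 gene of the 40 that edgeR called in TPMCa and in TPMR1 against TPM. In TPMCa against TPM, 27 of 40 genes were higher with a median log2 fold change of 0.22 beside -0.01 over all genes, and Srm rose 2.42-fold, 1.27 ± 0.25 (edgeR adjusted p = 0.0465), as the only call (background 0.466% called higher and 3.02% lower). The median rested on TPMCa replicate 1, being 0.027 with 22 of 40 genes higher without it and 0.386 without TPMCa replicate 2. DESeq2 also called Srm alone (background 6.14%). Both TPMCa libraries lay above both TPM libraries for 16 of the 40 genes (background 29.1%), and below them for Nop10, Polr1b, Rrs1 and Tsr1 (background 32.2%). The first share was somewhat above its background and the second below it. In TPMR1 against TPM, 30 of 40 were higher with a median of 0.16 beside 0.03, and Srm again was the only call of edgeR, at 1.28 ± 0.25 (edgeR adjusted p = 0.0361) (background 1.08% called higher and 4.5% lower), with 2 genes past the cutoffs of the methods (background 7.53%). That median was 0.053 with 27 of 40 genes higher without TPMR1 replicate 2, and 0.28 without TPMR1 replicate 1 and 0.268 without TPM replicate 2. DESeq2 called Srm and Polr1a higher in TPMR1 than in TPM (background 6.39%), Polr1a by 1.20 ± 0.37 (DESeq2 adjusted p = 0.0103). Both TPMR1 libraries lay above both TPM libraries for 13 genes (background 24.5%) and below them for Nip7 and Polr1b (background 28.4%). The call against TPM was lost in TPMCa without any 1 of the TPK, TPM or TPMCa libraries and in TPMR1 without any 1 library other than TPMR1 replicate 2, with edgeR adjusted p up to 0.264 and 0.222. Without TPMR1 replicate 2 the calls in TPMR1 against TPM were 2.

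Against the direction of the median, Polr1b was lower in TPMCa and TPMR1 than in TPM, with log2 fold changes of -0.54 ± 0.28 (edgeR adjusted p = 0.302) and -0.45 ± 0.28 (edgeR adjusted p = 0.396). In the same direction Nop10 had -0.41 ± 0.26 and Heatr1 -0.19 ± 0.27 in TPMCa, and Nip7 -0.54 ± 0.34 and Wdr74 -0.18 ± 0.30 in TPMR1. In TPMR1 against TPMCa, 19 of 40 genes were higher, the median was -0.03 and turned to 0.16 without TPMCa replicate 1 and to 0.09 without TPMR1 replicate 1, both TPMR1 libraries lay above both TPMCa libraries for 5 genes (background 18.8%) and below them for 1, Gar1 (background 17.7%), and no gene was called by edgeR (background 0%) or DESeq2 (background 2.11%), with 1 call by edgeR without TPMR1 replicate 2. The only unadjusted p under 0.05 in that comparison (background 5.49% higher) was that of Polr1a, 0.93 ± 0.31 (edgeR adjusted p = 0.389), where TPMR1 replicate 1 was far above replicate 2.

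The relation of the 40 genes to Myc was examined across the 8 libraries, each being 1 point. A score, the mean over the 40 genes of their centred log2 CPM, was -0.40 and -0.64 in TPK, -0.04 and 0.12 in the TPM libraries, 0.42 and 0.06 in those of TPMCa, and 0.17 and 0.31 in those of TPMR1. Its Pearson correlation with log2 CPM of Myc was 0.84 and its Spearman correlation 0.71 (n = 8). Without TPMCa replicate 1 and TPK replicate 2, the 2 libraries farthest from the median of Myc, these were 0.59 and 0.31 (n = 6), and without both TPK libraries they were 0.47 and 0.31 (n = 6). Without 1 library alone the Pearson correlation was 0.785 when TPMCa replicate 1 was left out and 0.73 when TPK replicate 2 was left out. The relation was thus weaker without TPK. The points share the scaling to total counts, and Myc level and model cannot be told apart for TPK.

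**Figure D3:**
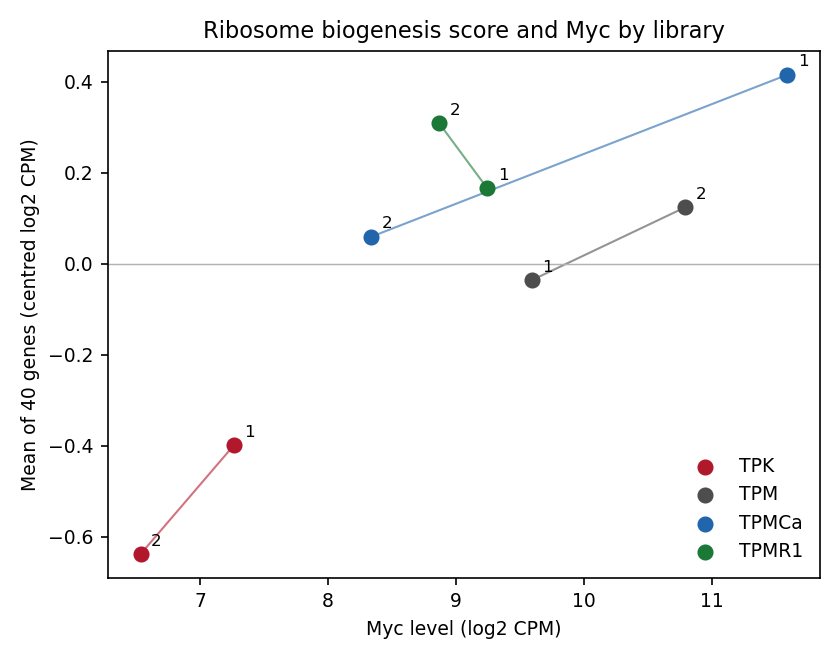
Score of the 40 genes (mean centred log2 CPM, vertical axis) against the Myc level (log2 CPM, horizontal axis) in the 8 libraries, coloured by model, numbered by replicate and joined within a model. Both TPK libraries are at the lower left, and TPMR1 is the model whose line runs downward.

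Per doubling of Myc, the level of all 40 genes had a positive slope, from 0.02 for Bop1 to 0.37 for Rrp9 on the log2 scale, with a median of 0.18, or 1.13-fold per doubling. Of all genes tested, 49.7% had a positive slope, with a median of 0.00. The 40 genes varied together, so their slopes are not independent of each other. This fit took the libraries as separate points although they come in pairs of the same model, so its p-values ignore that grouping. No gene of the 40 passed an edgeR adjusted p under 0.05, nor did any other gene (background 0%), and 18 of the 40 had an unadjusted p under 0.05 with a positive slope (background 3.49%). The median slope fell to 0.117 without TPK replicate 2, with 38 of 40 positive. DESeq2 called Wdr43 and Wdr74 (background 0.935%). The smallest edgeR p-values were those of Wdr43, slope 0.19 ± 0.05 (edgeR adjusted p = 0.678), Wdr74, 0.19 ± 0.05 (edgeR adjusted p = 0.678), and Npm1, 0.29 ± 0.08 (edgeR adjusted p = 0.678). By role, the slope had a median of 0.28 for nucleolar organisation, 0.24 for box C/D snoRNPs, 0.19 for polymerase I, 0.17 for the small subunit processome, 0.13 for box H/ACA snoRNPs and for the large subunit, and 0.10 for the late small subunit.

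With a term for the model, so that only the 2 libraries of a model are set against each other, 34 of 40 slopes were positive, as were 48% of those of all genes, and the median was 0.11. None passed the threshold, 1 had an unadjusted p under 0.05 (background 1.41%), and the smallest p was that of Utp4, with a slope of 0.40 ± 0.12 (edgeR adjusted p = 1), followed by Utp15 at 0.25 ± 0.11 and Nob1 at 0.34 ± 0.17. The lowest slopes were close to 0, -0.04 for each of Bop1, Nop56 and Nop2.

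Taken model by model, the library with more Myc also had more of most of the genes in TPK, TPM and TPMCa and less in TPMR1. TPK replicate 1 had 1.65-fold more Myc than replicate 2 and a higher level of 32 of 40 genes, with a median log2 difference of 0.22. TPM replicate 2 had 2.29-fold more Myc than replicate 1 and was higher for 32 of 40 genes, with a median of 0.16. In TPMCa, Myc differed most, 9.51-fold in favour of replicate 1, and 35 of 40 genes were higher there, with a median of 0.33. TPMR1, in which Myc differed least, 1.30-fold, was the exception, because 30 of 40 genes were lower in its library with more Myc, with a median of -0.23. Among all genes tested, between 47.2% and 50.1% were higher in the library with more Myc. Each of these differences is between 1 pair of libraries, with no replicate check. In the same fit with a term for the model, the markers of a cell type mostly shared 1 direction. The slope on Myc was negative for all 7 macrophage markers, with a median of -0.59 on the log2 scale. Of these, 5 had an edgeR unadjusted p under 0.05, beside 391 of 15874 genes tested that had one with a negative slope. The slope was also negative for all 6 fibroblast, 6 endothelial and 5 lymphocyte markers tested. The 6 squamous markers split, with 3 slopes positive and 3 negative and a median of -0.20. The slope was positive for all 5 neutrophil markers, with a median of 0.75, and for all 5 smooth muscle markers, with a median of 0.57. For all 6 epithelial markers it was also positive, with a median of 0.19. TPMCa, where Myc differed most, weighs most in this fit. The epithelial sum was higher in the library with more Myc in TPMCa alone, at 73.3 beside 23.7 CPM, and lower in TPK, TPM and TPMR1. In the library with more Myc the neutrophil sum was lower in TPK and TPMR1, and the smooth muscle sum in TPMR1. The macrophage, fibroblast, endothelial and lymphocyte sums were higher there in TPK. No marker passed an edgeR adjusted p under 0.05, and the part of these cells in the relation was not tested.

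In all 4 models the library with more Myc had the higher level of 7 genes, Polr1c, Nop10, Nhp2, Imp4, Utp4, Nob1 and Nip7. The share of all genes tested that did so was not counted, so the 7 are a description without a background. The difference of Utp4 was 0.59, 0.15, 1.30 and 0.70 on the log2 scale in TPK, TPM, TPMCa and TPMR1. That of Nob1 was 0.95, 0.01, 0.99 and 1.02, and that of Nip7 0.52, 0.07, 0.59 and 0.58. For Nob1 and Nip7 the difference was of similar size in TPK, TPMCa and TPMR1, whose Myc differences ran from 1.30-fold to 9.51-fold. Utp4, Nip7 and Nob1 lie near each other on chromosome 8 (GRCm38 chr8:106893636-106923088, chr8:107056877-107060931 and chr8:107412486-107425051). Their differences, and their slopes above, may thus not be separate observations, and the part of the shared region was not tested.

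**Figure D4:**
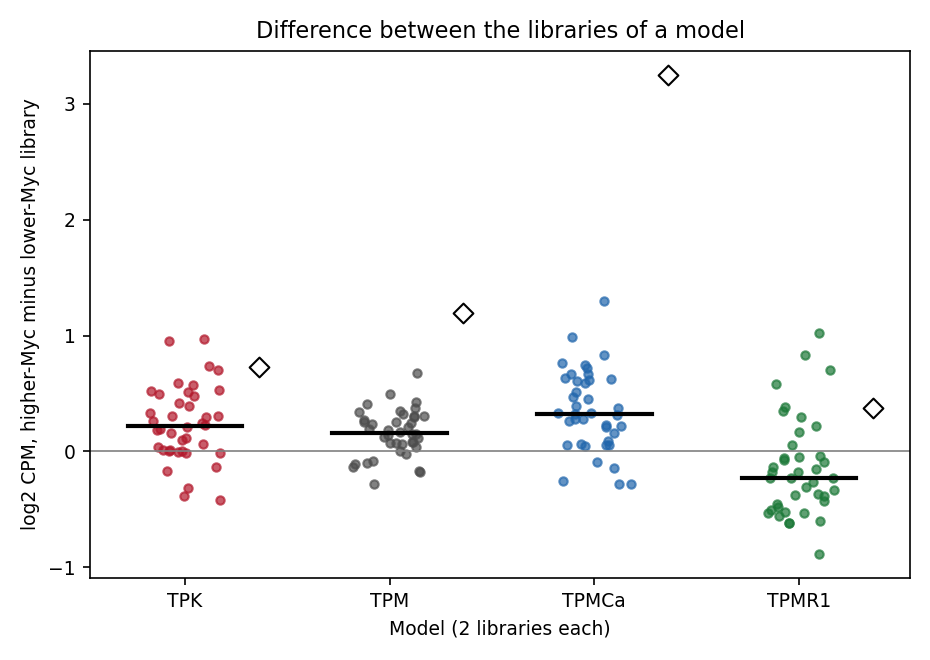
Difference in log2 CPM between the library with more Myc and the library with less Myc of each model, for the 40 genes (points), their median (bar) and Myc itself (diamond). The medians are 0.22 in TPK, 0.16 in TPM, 0.33 in TPMCa and -0.23 in TPMR1.

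The 40 genes varied together across the libraries. Each gene was correlated with the mean of the other 39, and the median Pearson correlation over the 8 libraries was 0.859, with 31 of 40 genes above 0.7. The highest were Wdr12 at 0.989, Rrp9 at 0.981 and Mybbp1a at 0.977. The lowest were Nip7 at -0.248, Nob1 at 0.168 and Bop1 at 0.33. These correlations are across libraries of 4 models and include the distance of TPK from the rest. The same values were not computed for other sets of genes, so they have no background.

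Other parts of the ribosome pathway were compared by gene lists that do not share members with the 40. Of 81 other ribosome biogenesis genes, 69 were higher in the mean of the models with the Myc cDNA than in TPK, with a median log2 fold change of 0.40, and 3 rose (Mrto4, Dhx33 and Mdn1) while 1 fell (Las1l). Mrto4, a large subunit assembly factor, rose by 1.12 ± 0.21 (edgeR adjusted p = 0.0255), and Las1l, of the nuclease complex that cuts the second internal spacer, fell by 0.92 on the log2 scale (edgeR adjusted p = 0.0268). The score of this list followed that of the 40 genes with a Pearson correlation of 0.98 across the 8 libraries. Of 9 measured RNA polymerase I factors, 6 were higher, with a median of 0.23, and of 17 RNA polymerase III genes 13 were higher with a median of 0.20, with no call in either list.

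Of the 45 measured ribosomal protein genes, 23 were higher and 22 lower in the mean of the models with the Myc cDNA than in TPK, the median was 0.00 and none was called. Model by model, 35 of 45 were higher in TPM, with a median of 0.12, 20 in TPMCa, with -0.01, and 17 in TPMR1, with -0.07. Their slope on Myc was positive for 43 of 45, with a median of 0.06 beside 0.18 for the 40 genes. With a term for the model it was positive for all 45, with a median of 0.14 beside 0.11 for the 40 genes. Their summed level was 64646 and 33487 CPM in TPK, 53108 and 53366 in the TPM libraries, 56153 and 42101 in those of TPMCa, and 48737 and 43634 in those of TPMR1, and TPK held both the highest and the lowest library. Among 30 other Myc-responsive genes, mostly of nucleotide and one-carbon metabolism and mitochondrial function, 25 were higher with a median of 0.59, and 4 rose, Cad, C1qbp, Hspd1 and Gart. The 15 proliferation genes were all higher, with a median of 0.62 and no call. In TPM alone the proliferation median was 0.12 and that of the 40 genes 0.53, whereas in TPMCa they were 1.08 and 0.69 and in TPMR1 0.91 and 0.71.

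**Figure D5:**
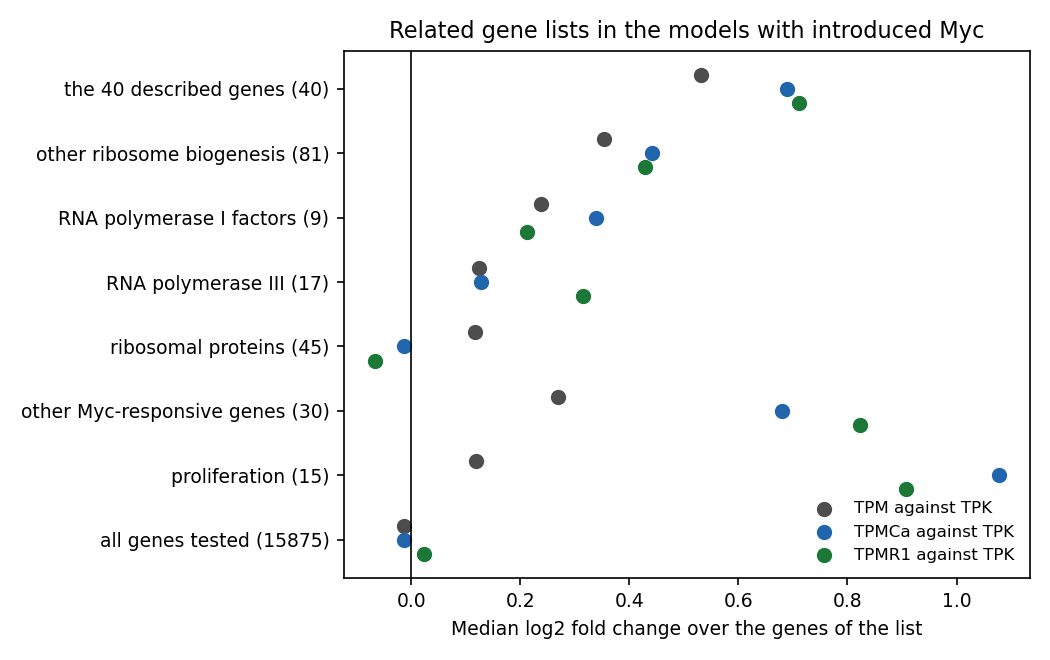
Median log2 fold change against TPK over the genes of each list (number of genes in parentheses) in TPM, TPMCa and TPMR1. The 40 genes lie at 0.53, 0.69 and 0.71, the ribosomal proteins between -0.07 and 0.12, and all genes tested near 0.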

How the data were processed

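The authors aligned 150-bp paired-end reads of polyA RNA to mm10 with STAR, and the deposited table holds whole-number read counts for each gene symbol in each library. The counter and its annotation are not given in the sources used here, and 25 gene symbols had been turned into dates. The table normalized by DESeq2 was not used. Model and replicate were taken from the sample titles, and the columns headed TPMS were taken as TPM.

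Counts were normalized by TMM in edgeR 4.0.16 (R 4.3.3, limma 3.58.1), genes with low counts were removed by filterByExpr, and all 8 libraries entered 1 quasi-likelihood fit by model (common dispersion 0.269). P-values were adjusted over all 15875 genes by the Benjamini-Hochberg method. Log2 CPM used a prior count of 2. The slope on Myc used log2 CPM of Myc as covariate, with or without the model. Permuting 2 libraries against 2 cannot give a p of 0.05 for any gene, and no permutation test was run. Alternatives were DESeq2 1.42.0, other scalings, no filter, a fit to the compared models alone, a replicate block, other thresholds and leaving out each library. Both tests were checked on simulated counts, with changes and slopes larger than most of those given here, so the check does not cover changes of this size.

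The genes, lists and comparisons were chosen with earlier results of these data known. Myc and the 40 genes could be named, with every library's value for genes fixed by role and, per comparison, the 3 with the smallest p and the 3 with the largest change against the median. Genes of other lists were named only if called. Some engineered genes are not reported here. Floors cover counting error only, while SEs come from the fit and include the spread between libraries.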

Additional observations from a re-analysis of the deposited data

How the results depend on the processing

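The medians against TPK kept their direction under every alternative tried, while the number of genes called did not. With DESeq2 the calls were 1 in TPM, 16 in TPMCa, 13 in TPMR1 and 16 in the mean of the models with the Myc cDNA against TPK, 2 in TPMR1 against TPM and 2 for the slope on Myc, while 1.21%, 17.1%, 20%, 15.3%, 14.1% and 1.09% of all genes were called in either direction. At an unadjusted p under 0.05 with a log2 fold change beyond 1 they were 2, 12, 11 and 10 against TPK and 2 in TPMR1 against TPM. With only the models compared in the fit, the calls in TPMR1 were 0 against TPK (2.02% of all genes called in either direction) and 0 against TPM. With no filter on low counts the call in TPMCa against TPM became 0.

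Leaving out 1 library at a time gave 0 to 10 calls in TPMCa, 0 to 7 in TPMR1 and 0 to 10 in the mean of the models against TPK, 0 to 1 in TPMCa against TPM, 0 to 2 in TPMR1 against TPM and 0 to 1 in TPMR1 against TPMCa. The share of all genes called moved too, so that the 10 calls in TPMCa came with 14.2% and 13.8% and the 0 calls with 0.256% to 2.52%. In these fits the lone library of a model is assumed to vary like the other models. The median in TPMCa ran from 0.56 to 0.92 against TPK and from 0.027 to 0.386 against TPM, and that in TPMR1 against TPM from 0.053 to 0.28. The median of TPMR1 against TPMCa ran from -0.17 to 0.16 and was reversed, to 0.16 without TPMCa replicate 1 and to 0.09 without TPMR1 replicate 1. The cause was not tested beyond the loss of a library.

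The correlation of the score with Myc was 0.59 without the 2 libraries farthest from the median of Myc and 0.47 without the TPK libraries, and 0.73 to 0.91 when 1 library was left out. A term for the replicate number, as a replicate block, left 1 call in TPMCa, 3 in TPMR1 and 1 in the mean of the models against TPK, and 0 in TPMCa and 0 in TPMR1 against TPM. The labels do not say whether equal replicate numbers mark a shared batch. The correlations of same-numbered deviations between models lay between -0.0687 and -0.00819, which does not settle it, since differences between single tumors enter them too. Of the named calls, none changed direction under any alternative.

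The lowest level of the 40 genes was 15.9 CPM and the floor at most 0.198 CPM, and the part of depth in the results was not tested.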
